A study of Mus musculus with 2 samples.

Results

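The 7 genes described here, F3, F7, F10, F13a1, Plau, Plaur and Thbs1, belong to blood coagulation and plasminogen activation, and they were taken by symbol from the UMI count tables of both libraries, which list 23946 genes in all. Each of the 7 was counted in both libraries. Live CD45+ leukocytes were sorted from the hearts of female C57BL6 mice 24 hours after an intraperitoneal injection, and scRNA-Seq libraries were made with droplet 3′ chemistry. The TTS library came from mice given 200 mg/kg isoproterenol (ISO), a β-adrenergic agonist that serves here as a model of Takotsubo-like cardiomyopathy, and the Control library from mice given the PBS vehicle. The treatment label states the ISO dose for both samples, so the Control was identified by its title and by the methods. Each group was 1 library of 3 pooled hearts of wild-type mice with no transgene, and the labels give no age. No difference between the libraries could therefore be tested, and every interval below is a 95% interval that covers counting error only.

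Coagulation starts when blood meets tissue factor, the membrane receptor encoded by F3, which binds factor VII (F7) and activates factor X (F10). Factor Xa then cleaves prothrombin, thrombin forms fibrin, and the A subunit of factor XIII (F13a1) cross-links it. The clot is dissolved by plasmin, which the urokinase plasminogen activator (Plau) generates at the cell surface when bound to its receptor (Plaur). Thrombospondin 1 (Thbs1) is a matricellular glycoprotein of platelet granules and of activated monocytes that binds fibrin and activates latent TGF-β. The liver supplies plasma factors VII and X, whereas F13a1 and Plau are well-known products of macrophages.

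On GRCm38, F7 (chr8:13026034-13035809) and F10 (chr8:13037308-13056676) are neighbours on the plus strand, with 1498 bases between them. The other members are F3 (chr3:121723537-121735048, plus strand), F13a1 (chr13:36867178-37050244, minus strand), Plau (chr14:20836660-20843385, plus strand), Plaur (chr7:24462484-24475968, plus strand) and Thbs1 (chr2:118111876-118127133, plus strand). All 7 are protein coding. F13a1 overlaps 2 antisense genes and Thbs1 overlaps 1 lincRNA on the opposite strand. These 3 were not analysed here, and the strand setting of the counting was not given in the sources used here, so reads from either strand of the overlaps cannot be told apart. Promoter windows, 250 bases before to 50 after the start, were available for 5 members from RefSeq (GRCm38.p6). The windows of the receptors F3 and Plaur are shown first because each holds an AP-1 motif, searched as TGACTCA and its reverse complement TGAGTCA and printed in capitals. It begins 135 bases before the start in F3 and 69 bases before it in Plaur.

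F3, chr3:121723287-121723586, plus strand: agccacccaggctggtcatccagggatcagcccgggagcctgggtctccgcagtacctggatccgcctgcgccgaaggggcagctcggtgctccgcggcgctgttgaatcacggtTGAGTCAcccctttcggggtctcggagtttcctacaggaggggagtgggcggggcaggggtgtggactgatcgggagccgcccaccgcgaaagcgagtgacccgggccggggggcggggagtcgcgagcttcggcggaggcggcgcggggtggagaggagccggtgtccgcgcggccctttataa
Plaur, chr7:24462233-24462532, plus strand: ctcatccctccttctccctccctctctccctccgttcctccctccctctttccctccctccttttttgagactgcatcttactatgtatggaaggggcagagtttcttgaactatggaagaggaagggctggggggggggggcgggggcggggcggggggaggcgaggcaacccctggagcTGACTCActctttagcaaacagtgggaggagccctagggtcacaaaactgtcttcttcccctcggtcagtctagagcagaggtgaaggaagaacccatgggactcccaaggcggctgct

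The windows of the neighbours F7 and F10, whose levels are compared below, hold no AP-1 letters and have no capitals.

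F7, chr8:13025784-13026083, plus strand: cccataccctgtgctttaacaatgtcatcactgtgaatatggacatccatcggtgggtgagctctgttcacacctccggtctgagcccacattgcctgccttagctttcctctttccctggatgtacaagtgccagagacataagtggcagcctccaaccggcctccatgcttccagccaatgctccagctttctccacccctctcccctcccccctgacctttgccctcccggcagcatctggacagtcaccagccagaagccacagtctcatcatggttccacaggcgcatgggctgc
F10, chr8:13037058-13037357, plus strand: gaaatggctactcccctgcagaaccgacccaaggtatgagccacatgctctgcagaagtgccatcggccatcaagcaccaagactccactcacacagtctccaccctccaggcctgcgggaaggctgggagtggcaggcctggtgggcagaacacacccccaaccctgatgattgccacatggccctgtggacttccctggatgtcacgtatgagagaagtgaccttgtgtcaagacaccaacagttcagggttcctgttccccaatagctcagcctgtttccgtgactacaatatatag

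Both windows of F13a1 also lacked the AP-1 letters. Of 32851 promoter windows of the same length, 5.2% held them, and a match is a description of the letters only. AP-1 was shown out of a wider search that also covered CRE core, GC box, TATA, NF-kB and hypoxia response core letters. GC boxes lay in F3 and Plaur (35.7% of all windows) and TATA letters in F3 (24.9%). A hypoxia response core (19.6%) lay 45 bases before the start in F10.

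The tables held 5641 Control and 5437 TTS cells that passed the filters of the study, with a median of 4790 and 8537 UMIs. Only 15 barcodes occurred in both libraries. Barcodes with marker transcripts of more than one lineage made up 30.6% of Control and 19.3% of TTS cells, and they were left out of every gate. The marker gates held 1186 Control and 3021 TTS myeloid cells, and 966 and 1263 cells of one lineage met no gate. Resident macrophages (Timd4, Lyve1, Folr2, Cd163, Gas6 and Vsig4) numbered 464 in Control and 180 in TTS, MHC class II-high macrophages 302 and 67 and nonclassical monocytes 79 and 26. Ccr2 macrophages numbered 96 and 536, classical monocytes 56 and 630, type 2 DCs 46 and 305, type 1 DCs 40 and 44, and neutrophils 95 and 60. Arg1-high macrophages numbered 1 and 562, C1q-low Ccr2 cells 6 and 575, and mature DCs 1 and 36, so these 3 gates are described in the TTS library alone. Unlike the other macrophage gates, the Arg1-high gate did not require C1q. Only 37.7% of its TTS cells reached the limit of 10 C1q UMIs per 10000. Their median was 1.26, against 34.7 in TTS Ccr2 macrophages.

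The gates held the markers they were set on, but their other transcripts differed between the libraries. The median MHC class II signal of Ccr2 macrophages was 608 UMIs per 10000 in Control and 29.0 in TTS, and that of resident macrophages was 177 and 13.6. Classical monocytes carried a median of 9.29 macrophage-list UMIs per 10000 in Control and 55.4 in TTS. Chi3l3 and Vcan, which are on the classical monocyte list but set no gate, were found in more TTS cells of every compared gate. Whether such a UMI in another gate was a transcript of that cell itself was not tested. A Chi3l3 UMI was present in 1.94% of Control and 27.8% of TTS resident macrophages, in 5.21% and 75.2% of Ccr2 macrophages, in 4.35% and 22.0% of type 2 DCs, and in 0 of 95 and 70.0% of neutrophils. Ratios of macrophages and DCs below are therefore also given for cells with no Chi3l3 or Vcan UMI where a result turns on it. This left 119 TTS resident, 36 MHC class II-high and 58 Ccr2 macrophages, 35 type 1 and 218 type 2 DCs, but 6 Arg1-high macrophages and 17 neutrophils, too few for a ratio. The cells left out were mostly of TTS, and Vcan itself is among the genes most like F10, so this choice is not independent of the levels compared.

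Levels are UMIs of the gene per 1000000 UMIs of the gate (CPM), and ratios are TTS over Control with 0.5 UMIs added to each sum. Genes with at least 20 UMIs over both libraries were compared, in gates with at least 20 cells in each. Over 8 gates, 42 pairs of a member and a gate could be compared, of which 28 were at least 2-fold higher in TTS and 0 were at least 2-fold lower. With genes at 0 in Control set to the bound that 3 UMIs allow, 27 pairs were at least 2-fold higher. In resident macrophages 4 of 6 members were at least 2-fold higher, beside 7.55% of all 9995 genes compared (8.55% lower). In MHC class II-high macrophages it was 3 of 5, beside 9.51% of all genes (11.9% lower). In Ccr2 macrophages it was 5 of 7, beside 10.1% (13.1% lower).

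Among classical monocytes 4 of 7 members were at least 2-fold higher, beside 9.09% of all genes (17.9% lower), and in nonclassical monocytes 2 of 4, beside 9.06% (11.5% lower). In type 1 DCs both members compared, Plaur (7 and 20 UMIs) and Thbs1 (1 and 62), were at least 2-fold higher, beside 7.91% (9.2% lower). Both reached 20 UMIs in the TTS library alone. In type 2 DCs it was 5 of 6, beside 9.96% (9.24% lower), or 4 of 6 with F7 at its bound. In neutrophils it was 3 of 5, beside 12.3% (12.2% lower). The shares of members lay above those of all genes in every compared gate, over 2 to 7 genes each, and were not tested. The minimum counts both libraries, so a member with few Control UMIs was admitted by its TTS UMIs, as F7 in type 2 DCs (0 and 24). The median log2 ratio of all genes was −0.22 in classical monocytes and −0.11 in neutrophils, and within 0.07 of 0 in the other gates. The members' own medians were 1.46 in resident, 1.18 in MHC class II-high and 1.83 in Ccr2 macrophages, 1.10 in classical and 1.05 in nonclassical monocytes, 1.37 in type 2 DCs (1.32 with the bound) and 1.70 in neutrophils. Among cells with no Chi3l3 or Vcan UMI, 1 of 5 members was at least 2-fold higher in each of the 3 macrophage gates, beside 7.84% of all genes in resident, 10.9% in MHC class II-high and 10.6% in Ccr2 macrophages, and 1 of 4 in type 2 DCs, beside 9.55%. There 1 member was at least 2-fold lower in MHC class II-high macrophages (Plau) and 1 in type 2 DCs (Thbs1), and in type 1 DCs 0 members had enough UMIs.

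**Figure D1:**
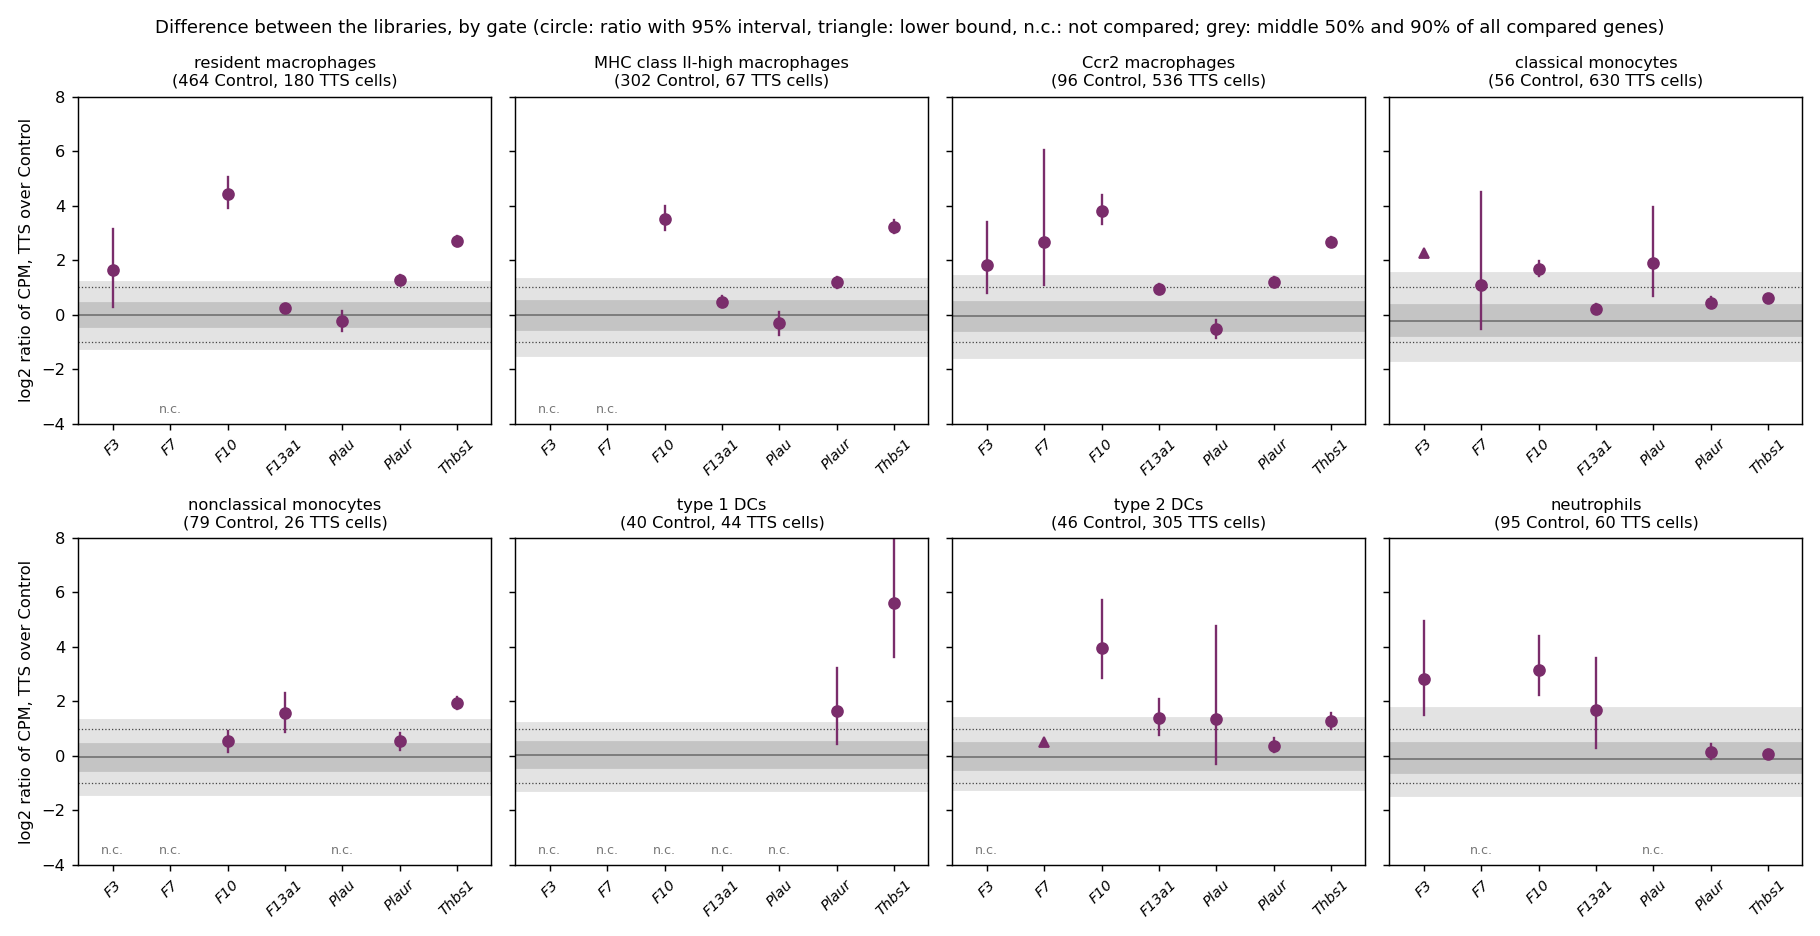
log2 ratio of CPM (TTS over Control) of each member in the 8 compared gates, with 95% counting intervals (cut at 8), lower bounds as triangles, and the middle 50% and 90% of all compared genes in grey. F10 lies above the grey range in 6 of 7 gates, while Plau lies below 0 in the 3 macrophage gates.

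F3, tissue factor, was scarce everywhere and was highest in neutrophils. The neutrophil gate held 4 F3 UMIs in Control (14.3 CPM) and 31 in TTS (113 CPM), a 7.16-fold difference (2.80 to 30.9). Both libraries had their highest F3 level in this gate. In Control its interval (3.89 to 36.5 CPM) overlapped those of all other compared gates but MHC class II-high macrophages. In TTS, the 17 neutrophil-gated cells with no Chi3l3 or Vcan UMI still held 11 F3 UMIs, or 163 CPM (81.3 to 291).

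Classical monocytes held no F3 UMI in 56 Control cells and 145 in 630 TTS cells (29.0 CPM), which is at least 4.75-fold higher, taking 3 UMIs over the Control gate as the limit of a count of 0. In Ccr2 macrophages F3 was 5.50 CPM in Control and 21.0 in TTS (3.55-fold, 1.71 to 10.6), a ratio that was 1.83 (0.488 to 6.83) from 6 and 6 UMIs without the Chi3l3 or Vcan cells. In resident macrophages F3 was 2.35 and 7.49 CPM (3.12-fold, 1.22 to 8.87). The resident ratio rested on 8 and 13 UMIs and its log2 value turned to −0.28 without the Chi3l3 or Vcan cells. In the TTS library the levels of classical monocytes, Arg1-high macrophages (24.0 CPM) and nonclassical monocytes (21.1 CPM) could not be told apart within counting error. F3 was at 4.29 CPM in TTS type 2 DCs and 2.16 CPM in type 1 DCs, close to the 2.26 CPM of TTS lymphocytes.

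F7, the protease that tissue factor binds, was almost absent from Control. Over all 5641 Control cells only 10 F7 UMIs were counted, against 1131 over the TTS cells. Of the Control UMIs in the gates, 2 lay in classical monocytes, 2 in Ccr2 macrophages and 1 in nonclassical monocytes. In TTS the Arg1-high macrophages stood highest, with 280 UMIs and 42.5 CPM (37.7 to 47.8), above the C1q-low Ccr2 cells at 20.2 CPM. Most cells of the Arg1-high gate lay under the C1q limit, as given above. The neutrophil, MHC class II-high, Ccr2 and classical monocyte gates followed at 18.2, 15.4, 14.3 and 10.8 CPM, and neighbours in that order overlapped within counting error.

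The F7 ratio was 6.27 (2.10 to 65.4) in Ccr2 macrophages, from 2 and 91 UMIs, of which 2 and 4 lay in cells with no Chi3l3 or Vcan UMI, and 2.14 (0.70 to 22.5) in classical monocytes, from 2 and 54. In type 2 DCs, with 0 and 24 UMIs, it was at least 1.41-fold higher. Arg1-high macrophages are absent from Control but for 1 cell, so their F7 level has no Control value. Their 6 cells with no Chi3l3 or Vcan UMI held 1 F7 UMI and 87.1 CPM of F10 (28.3 to 203). The whole Arg1-high gate held 24.8% of all F7 UMIs of the TTS library but 11.9% of all its UMIs.

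F10, whose product factor X is activated by the tissue factor and factor VII complex, was a monocyte gene in Control and was spread over most myeloid gates in TTS. Its Control level was highest in nonclassical monocytes (332 CPM) and next in classical monocytes (227 CPM), and the interval of that difference lay above equality. The other Control gates lay between 3.72 CPM in type 1 DCs and 32.1 CPM in neutrophils. Nonclassical monocytes are the patrolling subset marked by Ace and Treml4.

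In TTS the order changed, and classical monocytes (736 CPM) led Arg1-high macrophages (673 CPM), C1q-low Ccr2 cells (636 CPM) and nonclassical monocytes (479.8 CPM). The 2 monocyte gates differed least between the libraries, by 3.22-fold (2.68 to 3.94) in classical and 1.45-fold (1.09 to 1.90) in nonclassical monocytes. Ccr2 macrophages went from 30.2 to 430.2 CPM, a 14-fold difference (10.1 to 20.7). In cells with no Chi3l3 or Vcan UMI both levels were lower, at 11.1 and 184 CPM, and the ratio was 16-fold (8.89 to 34.3).

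Resident macrophages had 8.81 CPM of F10 in Control and 194 CPM in TTS, a 21.7-fold difference (15.2 to 33.2). Without the Chi3l3 or Vcan cells the levels were 2.51 and 16.8 CPM, and the ratio was 6.51 (2.67 to 18.2). In MHC class II-high macrophages F10 was 23.5 and 272 CPM (11.5-fold, 8.59 to 15.9), and 16.2 and 26.5 CPM (1.70-fold, 0.724 to 3.37) without those cells. In type 2 DCs it was 9.37 and 162 CPM (15.7-fold, 7.34 to 53.4), and 10.4 and 37.6 CPM (3.30-fold, 1.47 to 11.5) without them. Neutrophils rested on 9 and 83 UMIs, or 32.1 and 303 CPM (8.99-fold, 4.74 to 21.4). The 17 TTS neutrophils without those transcripts held 133 CPM (60.9 to 253). Whether any part of the F10 differences comes from monocyte transcripts in other cells was not tested.

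At an equal depth of 1000 UMIs per cell, 45.7% of Arg1-high macrophages (41.6 to 50), 41.4% of TTS classical monocytes (37.6 to 45.4) and 27.4% of TTS Ccr2 macrophages (23.7 to 31.4) held an F10 UMI. In Control it was 25% of classical monocytes (14.4 to 38.4) and 1.04% of Ccr2 macrophages (0.0264 to 5.67). The background share was 0.114% in Control and 0.971% in TTS lymphocytes, at a median of 3241 to 5616 UMIs over the Control and 3384 to 4538 over the TTS lymphocyte gates, and the TTS resident macrophages held 7.22% (3.9 to 12). The TTS background rests on 103 lymphocytes, and its interval (0.0246 to 5.29) overlapped that of the resident macrophages. Without thinning the share was 89.1% in Arg1-high macrophages and 22.2% in TTS resident macrophages. Type 1 DCs held 0 F10 UMIs after thinning in either library.

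**Figure D2:**
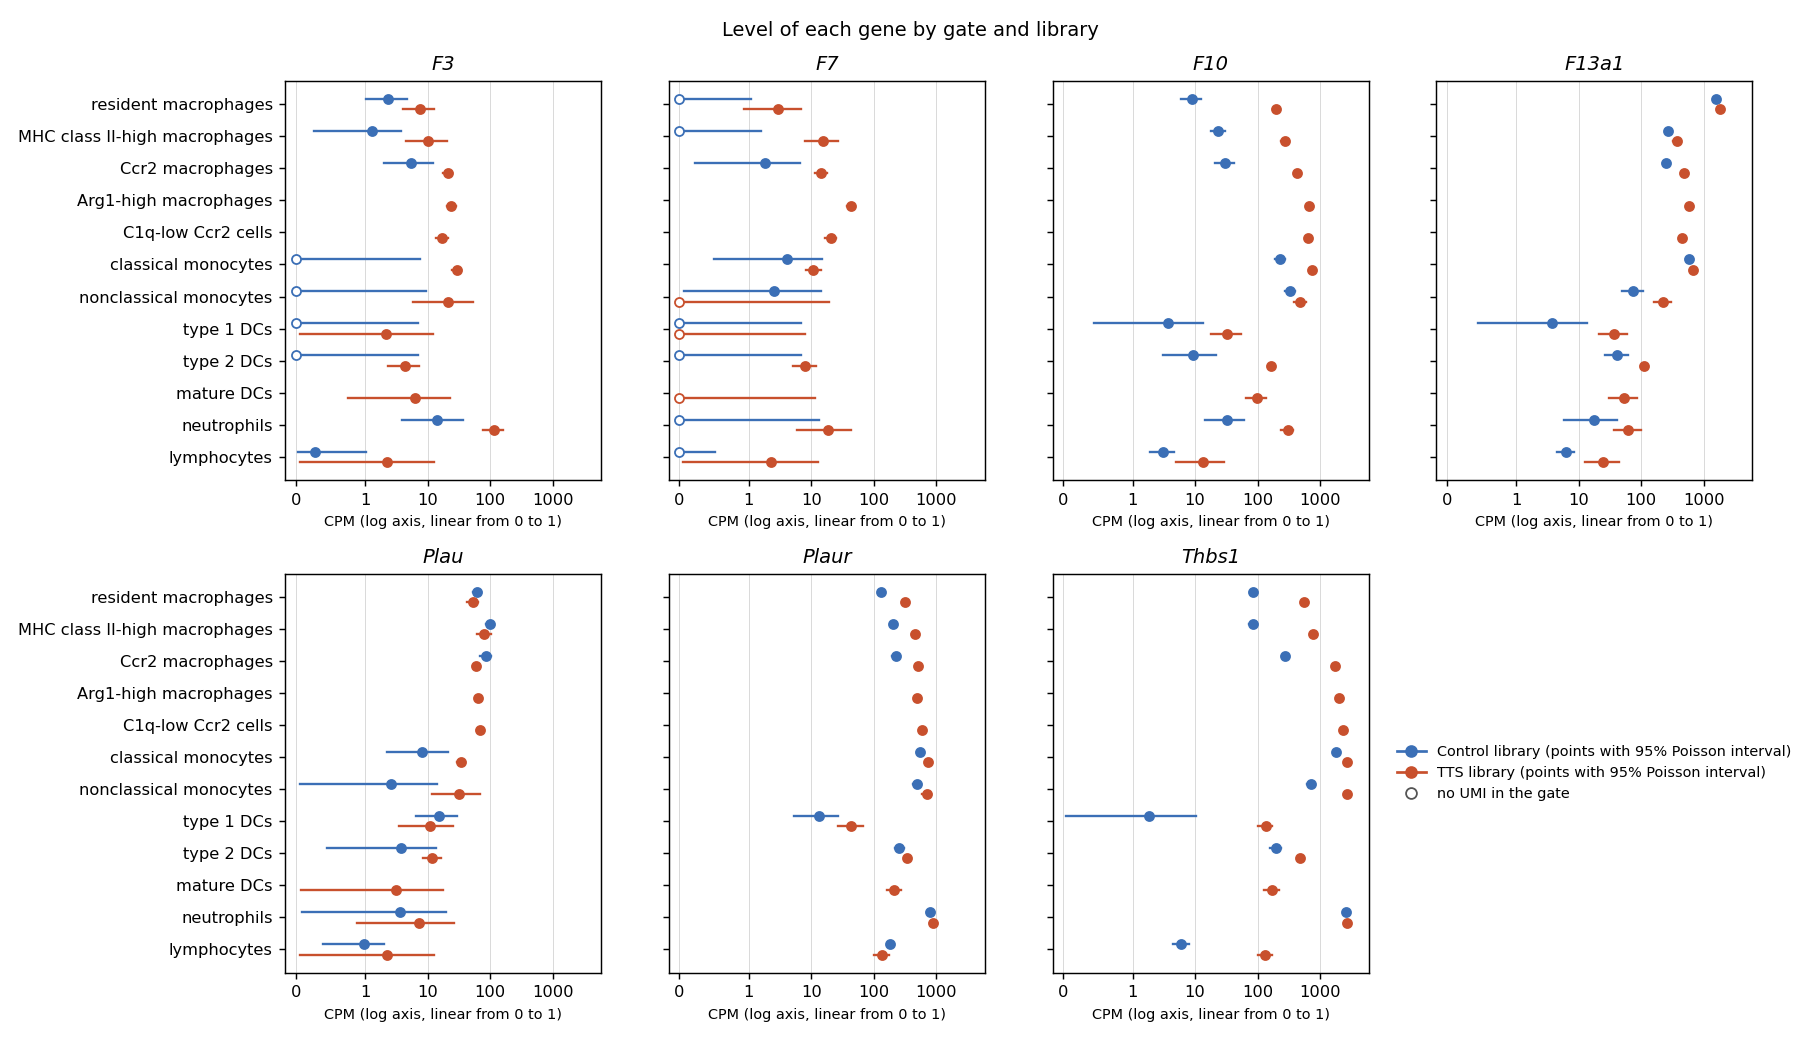
CPM of each member by gate and library on a log axis (linear from 0 to 1), with 95% Poisson intervals and open points where no UMI was counted; gates with fewer than 20 cells in a library have no point. F13a1 is highest in resident macrophages in both libraries, and F3 in neutrophils, where the Control level rests on 4 UMIs and overlaps most other gates.

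F13a1, the fibrin cross-linking subunit, differed more between macrophage subsets than between libraries. Resident macrophages held 1549.8 CPM in Control and 1811 CPM in TTS (1.17-fold, 1.12 to 1.22). Classical monocytes came second in both libraries, at 587 and 683 CPM (1.16-fold, 1.03 to 1.32). MHC class II-high macrophages held 267 and 368 CPM (1.38-fold, 1.20 to 1.59), and Ccr2 macrophages 250.1 and 481 CPM (1.92-fold, 1.70 to 2.19). The ratios of the 3 macrophage gates were also under 2 without the Chi3l3 or Vcan cells. In Ccr2 macrophages the log2 ratio was above 1 with barcodes of a second lineage kept (1.18) and with gating on thinned cells (1.22).

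The gates with little F13a1 in Control had the larger ratios. Nonclassical monocytes rested on 29 and 42 UMIs, or 74.0 and 221 CPM (2.98-fold, 1.82 to 4.98), type 2 DCs on 41.2 and 109 CPM (2.59-fold, 1.72 to 4.29), and neutrophils on 5 and 17 UMIs (3.26-fold, 1.23 to 12.1), of which 1 lay in the 17 TTS cells with no Chi3l3 or Vcan UMI. In type 2 DCs with no Chi3l3 or Vcan UMI the ratio was 0.822 (0.4996 to 1.46). After thinning, 68.5% of Control and 72.2% of TTS resident macrophages held an F13a1 UMI, against 19.2% and 19.4% of MHC class II-high macrophages. Resident macrophages held 33% of all F13a1 UMIs in Control and 11% in TTS, while their share of all UMIs was 8.17% and 3.13%.

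**Figure D3:**
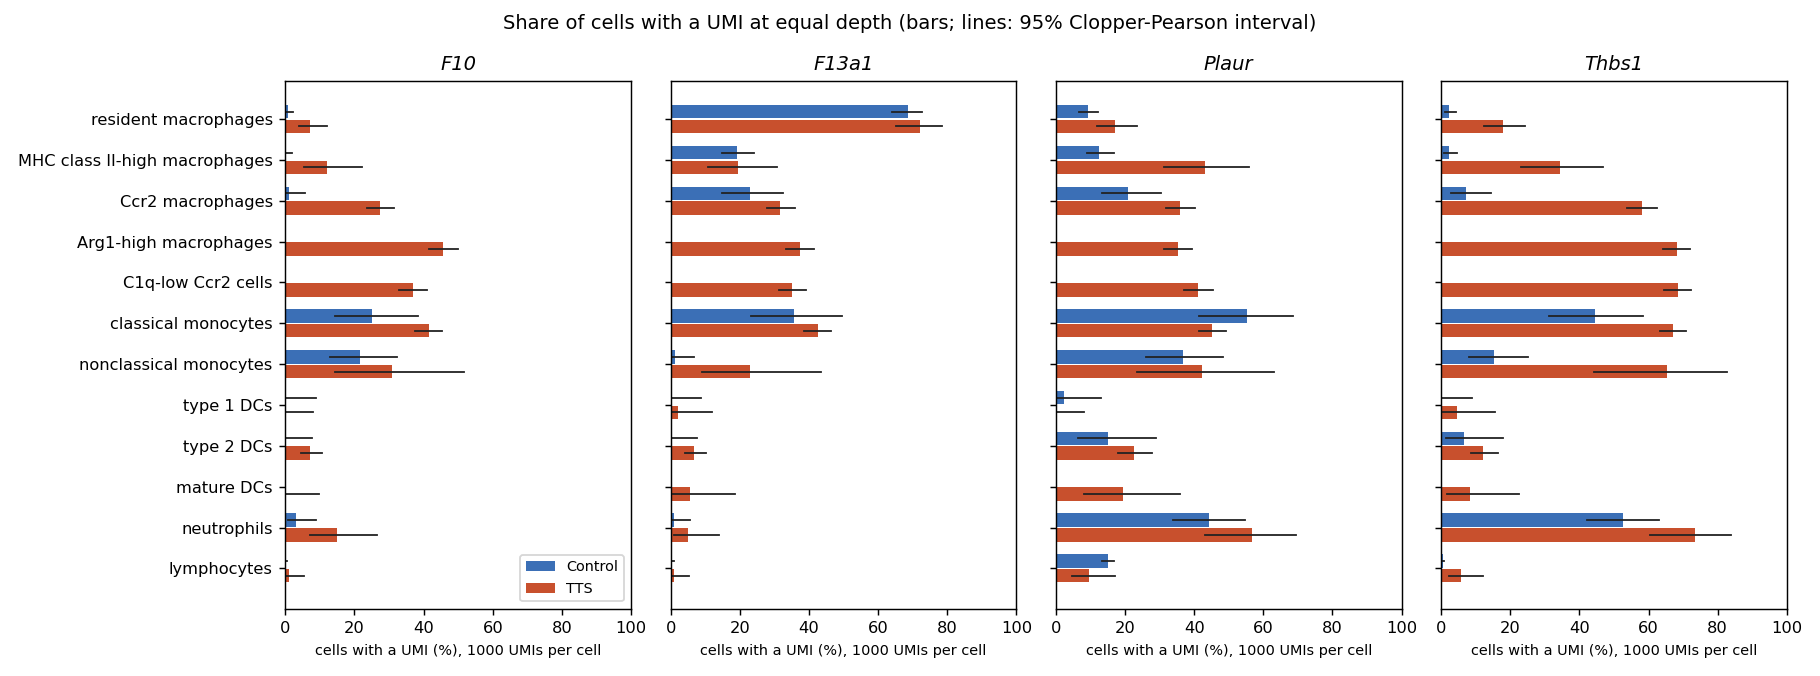
Share of cells (%) with at least 1 UMI of F10, F13a1, Plaur or Thbs1 after each cell was thinned to 1000 UMIs, by gate and library, with 95% Clopper-Pearson intervals. Lymphocytes are shown beside the myeloid gates, and for Plaur they are no background, since 20.6% of Control B cells held it. F10 and Thbs1 separate the libraries in Ccr2 macrophages, whereas the F13a1 shares of resident macrophages overlap.

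Plau, urokinase, was the only member below 1 in any compared gate. MHC class II-high macrophages held 97.8 CPM in Control and 79.3 CPM in TTS (0.816-fold, 0.602 to 1.08), levels that could not be told apart within counting error from those of Control Ccr2 macrophages and of TTS C1q-low Ccr2 cells. Resident macrophages held 62.0 and 52.4 CPM (0.849-fold, 0.654 to 1.09). Ccr2 macrophages held 85.2 and 59.2 CPM, and their ratio of 0.692 (0.552 to 0.881) had an interval below equality. In cells with no Chi3l3 or Vcan UMI this ratio was 0.574 (0.354 to 0.882), and that of MHC class II-high macrophages was 0.279 (0.126 to 0.4997), from 221 and 10 UMIs. Their TTS level was then 26.5 CPM, below the 49.6 CPM of Ccr2 and the 47.0 CPM of resident macrophages.

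Classical monocytes differed the other way, with 4 Plau UMIs in Control (8.12 CPM) and 170 in TTS (33.9 CPM), a 3.73-fold difference (1.6 to 15.5). The TTS level of C1q-low Ccr2 cells, 67.9 CPM, lay between that of classical monocytes and that of MHC class II-high macrophages. Neutrophils, which had the most Plaur, held 1 and 2 Plau UMIs. In type 1 DCs Plau was 14.9 and 10.8 CPM, from 8 and 5 UMIs.

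Plaur, the urokinase receptor, was highest in neutrophils and monocytes and was also found in B cells. Neutrophils held 795 CPM in Control and 887 CPM in TTS (1.11-fold, 0.926 to 1.34). Classical monocytes held 548 and 746 CPM (1.36-fold, 1.20 to 1.55), and nonclassical monocytes 485 and 701 CPM (1.45-fold, 1.15 to 1.81). The difference was larger in macrophages, where the Control levels were lower.

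Resident macrophages went from 131 to 319 CPM of Plaur (2.44-fold, 2.15 to 2.77), MHC class II-high macrophages from 203 to 461 CPM (2.27-fold, 1.97 to 2.61) and Ccr2 macrophages from 225 to 512 CPM (2.27-fold, 2.0 to 2.6). Without the Chi3l3 or Vcan cells these ratios were 1.98 (1.66 to 2.36), 1.83 (1.47 to 2.24) and 1.61 (1.31 to 1.98), still above equality. Type 2 DCs held 255 and 333 CPM (1.3-fold, 1.09 to 1.58), and 0.895-fold (0.735 to 1.10) without them. B cells held 259 CPM in Control, with a Plaur UMI in 20.6% of thinned cells, above the 4.67 CPM of NK cells and the 46.2 CPM of T cells. After thinning, the share in MHC class II-high macrophages was 12.6% in Control (9.06 to 16.9) and 43.3% in TTS (31.2 to 56.0).

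Thbs1, thrombospondin 1, had the most UMIs of the 7 members in TTS, 101712 against 5612 in Control. In Control it was concentrated in neutrophils (2575 CPM) and classical monocytes (1772 CPM). In TTS classical monocytes (2728 CPM), neutrophils (2715 CPM) and nonclassical monocytes (2705 CPM) could not be told apart within counting error. The neutrophil ratio was 1.05 (0.95 to 1.17) and that of classical monocytes 1.54 (1.44 to 1.65), while nonclassical monocytes went from 707 to 2705 CPM (3.82-fold, 3.30 to 4.44).

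Macrophages held far less Thbs1 in Control. The level was 84.6 CPM in resident macrophages and 548 CPM in TTS (6.46-fold, 5.67 to 7.41), 83.7 and 782 CPM in MHC class II-high macrophages (9.32-fold, 7.93 to 11), and 276 and 1764 CPM in Ccr2 macrophages (6.39-fold, 5.71 to 7.2). In cells with no Chi3l3 or Vcan UMI the ratio was 1.90 (1.40 to 2.55) in resident and 1.95 (1.58 to 2.40) in Ccr2 macrophages, and 10.2 (6.59 to 16.1) in MHC class II-high macrophages, from 15.3 and 156 CPM. In type 2 DCs the direction turned, from 2.44-fold (2.0 to 3.01) to 0.403-fold (0.301 to 0.545). Type 1 DCs held 1 UMI in Control and 62 in TTS (134 CPM), near the 134 CPM of TTS lymphocytes. Those lymphocytes were no even background, since 44 of their 59 Thbs1 UMIs lay in 52 ILC2 (217 CPM). The TTS level was 152 CPM in NK cells, from 12 UMIs held by 7.69% of 13 cells. It was 23.0 CPM (0.581 to 128) in 11 B cells and 17.1 CPM (2.08 to 61.9) in 27 T cells, from 1 and 2 UMIs. TTS mature DCs held 169 CPM, and 0 UMIs in the 27 cells without those transcripts.

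Platelets also carry Thbs1. The 6 platelet markers summed to 18.8 CPM in Control and 110.1 CPM in TTS resident macrophages, to 5.50 and 33.6 CPM in Ccr2 macrophages, to 38.6 and 4.19 CPM in classical monocytes, and to 0 in both neutrophil gates. Their part in the Thbs1 differences was not tested. At equal depth 58.2% of TTS Ccr2 macrophages (53.9 to 62.4) and 7.29% of Control ones (2.98 to 14.4) held a Thbs1 UMI, beside 5.83% and 0.512% of lymphocytes.

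**Figure D4:**
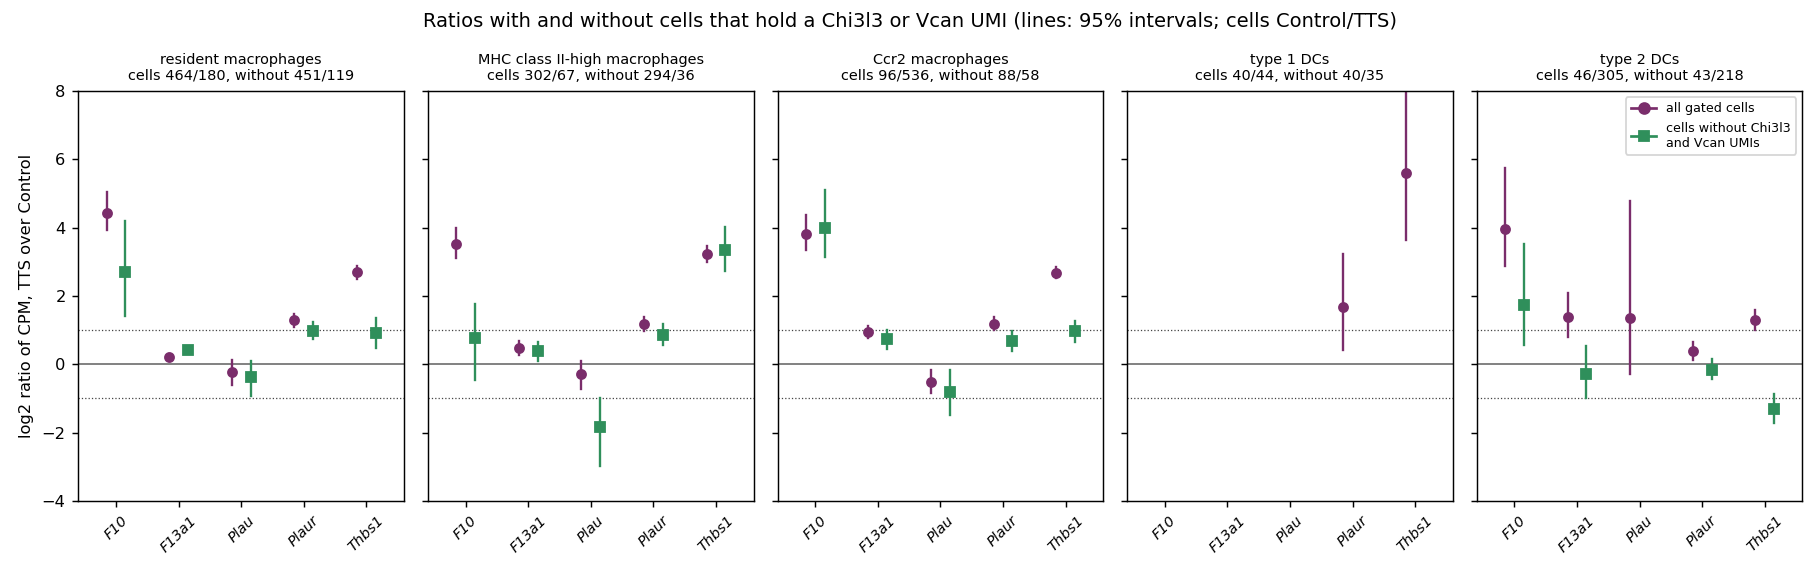
log2 ratio of CPM (TTS over Control) of 5 members in macrophage and DC gates, for all gated cells and for cells with no Chi3l3 or Vcan UMI, with 95% intervals (cut at −4 and 8); members with fewer than 20 UMIs have no point. The Ccr2 macrophage ratio of F10 is 14-fold with and 16-fold without those cells, while the resident macrophage ratio of Thbs1 falls from 6.46-fold to 1.90-fold.

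The 7 genes fell into different patterns over 14 points, each a myeloid gate with at least 50 cells in 1 library. Plaur and Thbs1 were most alike, with a Pearson correlation of 0.95 of log2(CPM + 1), followed by the neighbours F10 and F7 at 0.88. F13a1 and Plau correlated at 0.70 with each other and at −0.45 and −0.52 with Plaur. These correlations describe gates that share their library and are no tests. Of the 148 Arg1-high macrophages with an F7 UMI, 144 also held an F10 UMI, where 89.1% of all cells of that gate did.

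The genes outside the list most like each member, among 8691 searched over the same 14 points, were Setd8, Ccdc71l and Vcan for F10 (r = 0.95 to 0.96) and Vcan and Dmkn for F7 (r = 0.91). Il1rn, Cxcl3 and Upp1 were most like F3 (r = 0.90 to 0.98), the first encoding the interleukin 1 receptor antagonist and the second a neutrophil chemokine. Ptgr1, Grn and Snx2 were most like F13a1 (r = 0.92). For Plau they were 5430435G22Rik, Tmem119 and Errfi1 (r = 0.96 to 0.97), for Plaur the hyaluronan receptor gene Cd44, Gm5150 and Clec4e (r = 0.96), and for Thbs1 Gm14005, Emb and Clec4e (r = 0.96).

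Among 41 other coagulation, anticoagulation and fibrinolysis genes, 35 were in the tables. Between 7 and 17 of them could be compared in a gate, and the shares of all genes beside these counts lay between 7.55% and 12.3% higher and between 8.55% and 17.9% lower, gate by gate as given above for the members. In resident macrophages 4 of 16 were at least 2-fold higher and 1 lower, in MHC class II-high macrophages 4 and 4 of 14, and in Ccr2 macrophages 5 and 3 of 17 (4 higher with bounds). In classical monocytes 7 of 15 were higher and 2 lower (5 higher with bounds), in nonclassical monocytes 2 and 2 of 7, in type 1 DCs 1 and 2 of 9, in type 2 DCs 2 and 1 of 14 (1 higher with bounds) and in neutrophils 3 and 1 of 7. The list's median log2 ratio lay between −0.42 in MHC class II-high macrophages and 0.62 in classical monocytes.

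Anxa2 and S100a10, which form a plasminogen receptor at the cell surface, were higher in TTS in the 3 macrophage gates, both monocyte gates and type 2 DCs. In type 1 DCs S100a10 was 0.532-fold (0.435 to 0.646) and Anxa2 1.11-fold (0.966 to 1.28), and in neutrophils Anxa2 was 0.909-fold (0.758 to 1.09) and S100a10 5.28-fold (3.24 to 9.50). In Ccr2 macrophages Anxa2 went from 368 to 1085 CPM (2.94-fold, 2.66 to 3.26) and S100a10 from 559.8 to 1679 CPM (3.00-fold, 2.76 to 3.26). In MHC class II-high macrophages the ratios were 6.43 (5.66 to 7.32) and 4.23 (3.84 to 4.66). Without the Chi3l3 or Vcan cells Anxa2 was 2.64-fold (2.31 to 3.04) and S100a10 2.66-fold (2.38 to 2.97) in Ccr2 macrophages. Serpinb2, an inhibitor of urokinase, was at 2 UMIs in Control and 41 in TTS resident macrophages (23.6 CPM). Only 1 of the 41 lay in cells with no Chi3l3 or Vcan UMI. In MHC class II-high macrophages it was at 0 and 34 UMIs, of which 0 and 20 lay in such cells (53.02 CPM in TTS). In Ccr2 macrophages it was at 1 and 144 UMIs, of which 1 and 14 lay in such cells (25.7 CPM in TTS). Type 2 DCs held 0 and 28 UMIs, with 0 and 1 in such cells, and type 1 DCs 0 and 17, with 0 and 0. In classical monocytes Serpinb2 was at 32.5 and 76.3 CPM (2.28-fold, 1.43 to 4.15).

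Thrombomodulin (Thbd), which turns thrombin toward activating protein C, was lower in TTS monocytes, at 87.3 and 25.6 CPM in classical (0.291-fold, 0.206 to 0.424) and 120 and 42.2 CPM in nonclassical monocytes. Vkorc1, the vitamin K reductase needed to carboxylate factors VII and X, was at 41.2 and 10.7 CPM in Ccr2 macrophages (0.258-fold, 0.175 to 0.386), and 0.651-fold (0.329 to 1.17) without the Chi3l3 or Vcan cells. Without those cells its other ratios stayed below equality, at 0.573 (0.365 to 0.845) in resident and 0.470 (0.187 to 0.909) in MHC class II-high macrophages. They were 0.297 (0.0493 to 0.895) in type 1 DCs, from 18 and 3 UMIs, and 0.424 (0.212 to 0.903) in type 2 DCs. Cd36, a receptor of thrombospondin 1, was at 228 and 71.0 CPM in Ccr2 macrophages (0.311-fold, 0.266 to 0.365) and 518 and 111 CPM in nonclassical monocytes, while Cd47, another receptor of it, was at 355 and 303 CPM in Ccr2 macrophages. F5, the cofactor of factor Xa, was highest in neutrophils at 132 and 58.4 CPM (0.45-fold, 0.23 to 0.815).

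Much of each gene's signal lay outside the gates. Barcodes of more than one lineage held 37.9% of F10, 57.3% of F13a1 and 43.8% of Thbs1 UMIs in Control, where they held 51.5% of all UMIs, and 19.6%, 29.3% and 24.3% in TTS, where they held 23.6%. Over whole libraries F10 went from 767 to 28047 UMIs and F7 from 10 to 1131, while F13a1 went from 15975 to 28498. Classical monocytes, Arg1-high macrophages, C1q-low Ccr2 cells and Ccr2 macrophages held 13.1%, 15.8%, 11.4% and 9.77% of the F10 UMIs of TTS. With pooled hearts and 1 library per group, a change in the mix of cells and a change of level within cells can be told apart only as far as the gates separate the cells.

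**Figure D5:**
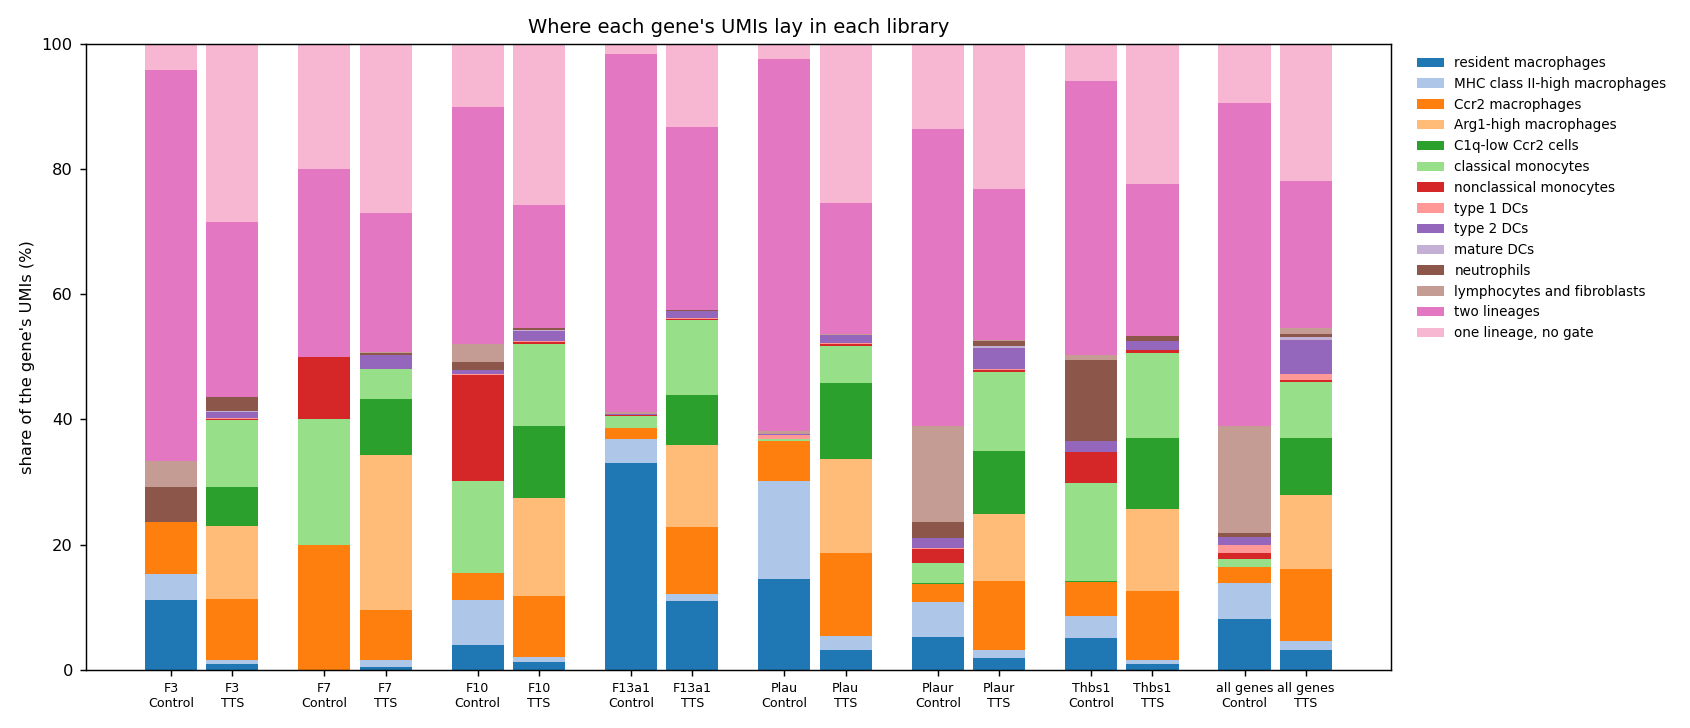
Share (%) of each member's UMIs by gate in each library, with all genes at the right. In TTS the Arg1-high macrophages hold 24.8% of F7 UMIs and 11.9% of all UMIs.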

How the data were processed

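Counts of UMIs per gene and barcode were used as deposited, without normalization. Per the labels, the submitters' processing notes name UMI-tools 1.0.0, STAR 2.7.3a with mm10 and featureCounts 1.6.4 of Subread behind the deposited counts. The annotation and strand setting were not given in the sources used here. The cell filter followed the study's methods, with a range of 500 to 6000 detected genes, both ends excluded, and a mitochondrial share below 25%. No doublet caller was run: barcodes over the marker limits of more than one lineage were left out. Gates used marker UMIs per 10000, with limits chosen after the data were seen. UMIs were summed per gate and library, and shares of cells were taken after thinning each cell to 1000 UMIs, leaving out shallower cells. With 1 library per group no test was made. Intervals are exact Poisson for levels, Clopper-Pearson for shares and conditional binomial for ratios, at 95%. Fold limits of 2, a minimum of 20 UMIs over both libraries and of 20 cells in each, and 0.5 added UMIs were used. Gates with 50 cells or more gave the points of the correlations, over genes with at least 200 UMIs that were neither members nor gate markers, and the 3 highest per member were named, except where a gene is not reported here. Genes of the pathway list that reached 20 CPM in a gate of at least 50 cells could be named. The members and lists were chosen with earlier results of these data known. Results were recomputed under 18 other settings, and under 3 chosen after seeing the data (cells with Chi3l3 or Vcan left out, the lymphocyte level subtracted, and gated cells thinned to 1000 UMIs). Python 3.11.15, numpy 2.4.6, scipy 1.17.1, pandas 2.3.3 and matplotlib 3.10.9 were used, and the ratio code was tested on simulated data. Gene positions came from GENCODE on GRCm38.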

Additional observations from a re-analysis of the deposited data

Results flagged for a closer look

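Plau differed between the libraries in opposite directions in 2 gates, with both counting intervals away from equality. Its log2 ratio of TTS over Control was −0.53 (−0.86 to −0.18) in Ccr2 macrophages, from 93 and 377 UMIs, and 1.90 (0.68 to 3.96) in classical monocytes, from 4 and 170 UMIs. The difference between the gates was not tested, since each group is 1 library. The direction held under 15 alternatives in Ccr2 macrophages, at −0.99 to −0.07, and under 14 in classical monocytes, at 0.57 to 5.14, since leaving out cells with Chi3l3 or Vcan was not applied to monocytes.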

How the results depend on the processing

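Of the 28 ratios at least 2-fold higher in TTS, 20 kept their sign under every alternative that gave a value and 8 stayed past 2-fold in all of those: F10 in resident and Ccr2 macrophages, classical monocytes, type 2 DCs and neutrophils, F3 in neutrophils, and Thbs1 in MHC class II-high macrophages and nonclassical monocytes. The monocyte and neutrophil ratios among these were not put to leaving out Chi3l3 or Vcan cells. That choice was not applied to monocytes and left too few neutrophils. Over the 8 gates, 28 of 42 pairs were also at least 2-fold higher with a 10% mitochondrial limit, more than 1000 genes, totals without mitochondrial and ribosomal UMIs, or median-of-ratios scaling, and 10 of 27 with gated cells thinned to 1000 UMIs. Subtracting the B cell level moved the median log2 ratio of all genes by −2.26 to 1.58 over the gates, 5 added UMIs by −0.43 to 0.20 and median-of-ratios scaling by −0.04 to 0.18.

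The number of members at least 2-fold higher changed as follows. Parentheses give the share of all compared genes past the same limit in that gate and setting. With 5 UMIs added the number was 2 in classical monocytes (2.85%) and 3 in type 2 DCs (2.66%). With limits halved it was 3 in Ccr2 macrophages (11.3%), 4 in type 1 DCs (10.1%), 3 in type 2 DCs (12.5%) and 1 in neutrophils (9.64%). With limits doubled it was 2 in type 2 DCs (7.86%). With cells weighted equally it was 3 in type 2 DCs (10.9%), and without the top 5% of cells 1 in type 1 (8.94%) and 2 in type 2 DCs (10.8%). With gating on cells thinned to 1000 UMIs 31 pairs were compared. The number was then 3 in Ccr2 macrophages (18.5%) and 1 each in classical monocytes (16.8%), type 1 DCs (15.3%), type 2 DCs (20.6%) and neutrophils (12.7%). There 1 member was 2-fold lower in MHC class II-high macrophages (13.2%). Without Chi3l3 or Vcan cells, a choice not applied to the monocyte gates, the number was 1 in resident (7.84%), 1 in MHC class II-high (10.9%) and 1 in Ccr2 macrophages (10.6%). It was 0 in type 1 DCs (7.7%) and 1 in type 2 DCs (9.55%). Under this choice 1 member was lower in MHC class II-high macrophages (10.8%) and 1 in type 2 DCs (9.02%). With gated cells thinned before summing it was 1 in resident (10.9%) and 3 in Ccr2 macrophages (17.4%). There it was 1 in classical (14.4%) and 1 in nonclassical monocytes (11.96%). It was 0 in type 1 DCs (11.8%), 2 in type 2 DCs (16.6%) and 0 in neutrophils (9.31%). With the lymphocyte level subtracted it was 0 in type 1 DCs (26.8%), and with the B cell level subtracted 1 (29.3%). Subtracting the B cell level left 1 member each lower in nonclassical monocytes, type 2 DCs and neutrophils, where 20.5%, 52.9% and 22.7% of all genes were lower. A fold limit of 3 gave 1 in nonclassical monocytes and 2 in type 2 DCs. A minimum of 100 UMIs gave 1, 0, 3 and 0 in nonclassical monocytes, type 1 DCs, type 2 DCs and neutrophils, and a minimum of 1 UMI gave 5 in MHC class II-high macrophages, 4 in nonclassical monocytes and 5 in type 1 DCs. No share over all genes was taken for the fold limit of 3 or for these minimums.

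Signs turned for F13a1 with the B cell level subtracted, which rests on 11 TTS B cells, to −2.01 in nonclassical monocytes, −7.82 in type 2 DCs and −3.02 in neutrophils. For F3 in resident macrophages the log2 ratio was −0.27 with thinned gating, −0.28 without Chi3l3 or Vcan cells and −1.44 with thinned sums, and for F7 in type 2 DCs −2.37, −0.35 and −1.14. Without Chi3l3 or Vcan cells F13a1 was −0.28 and Thbs1 −1.31 in type 2 DCs, and with thinned sums Plaur was −1.72 in type 1 DCs. Thinning left fewer UMIs, and the other causes were not tested. Nonclassical monocytes and type 1 DCs under doubled limits, and neutrophils without Chi3l3 or Vcan cells, had fewer than 20 TTS cells and gave no ratio. No paired analysis was possible because each group is 1 library, and no library could be left out. Counts under about 20 UMIs, which include most F7 and F3 values of Control, limit what can be compared.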
